A study of Mus musculus with 12 samples.

Results

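The striated muscle myosin heavy chains described here are the products of 8 mouse genes, Myh3, Myh8, Myh1, Myh2, Myh4, Myh7, Myh6 and Myh7b. Their rows were found in the deposited count table by Ensembl ID, matched to symbols in a GENCODE annotation of GRCm38, and all 8 were present among the 55487 listed genes. They were chosen as a gene family, with earlier results of these data known.

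C2C12 is a single mouse cell line of myoblasts, which on withdrawal of serum leave the cell cycle and fuse into myotubes with many nuclei. Myotubes formed over 5 days in medium with 2% horse serum, after which the medium was exchanged for 24 h. The control group received 4% horse serum and the other group 4% STEM, a cell-free secretome of partially differentiated human pluripotent stem cells, with 6 RNA sequencing libraries in each group. STEM replaced the serum, so its addition and the removal of horse serum cannot be told apart, and the sources do not say whether the libraries of a group came from separate differentiations, so p-values measure the spread between these libraries.

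Myosin heavy chains are the motor proteins of the thick filament. Their heads bind actin and hydrolyse ATP, their tails assemble into the filament, and the isoform present sets much of the contraction speed of a fibre. During mouse muscle development the embryonic and perinatal isoforms (Myh3 and Myh8) precede the adult fast isoforms 2X (Myh1), 2A (Myh2) and 2B (Myh4). Myh7 encodes the slow isoform. Myh6 encodes the alpha isoform of the heart and Myh7b an ancient relative of the slow isoform. Cultured myotubes usually carry a mixture of developmental and adult chains, and antibodies against sarcomeric myosin heavy chain are commonly used to mark myotubes.

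Libraries held between 13285472 and 24536264 counts. Horse serum library 6 stood apart from all others on the second principal component of all tested genes, at -53.3 against 0.22 to 11.8, and on the first it lay at 11.2, nearer to the STEM libraries (15.5 to 28.6) than to the other horse serum libraries (-35.5 to -24.6). Results on the heavy chains are therefore given with and without it. The labelled cell type was checked against 9 myotube markers, of which all were expressed. Their summed level in CPM, counts scaled to the size of the library, was 9956 to 10667 in horse serum libraries 1 to 5, 6279 in library 6 and 8247 to 9458 with STEM. Of the 9, 1 rose and 3 fell with STEM across 12 libraries, and 1 rose and 6 fell without library 6. Here rose and fell mean called at the threshold given below. Markers of proliferating cells summed to 673 to 1022 CPM in horse serum libraries 1 to 5, 1138 in library 6 and 496 to 613 with STEM, and 6 of these 7 genes fell with STEM in both fits. Over all tested genes, 18.9% rose and 17.4% fell across 12 libraries, and 26.3% and 24.5% without library 6. The 6 tested markers of satellite or reserve cells summed to 488 to 550, 377 and 274 to 333 CPM in the same order, and 5 fell in both fits. Pax7 was at 33.3 ± 3.90 CPM in horse serum and 32.4 ± 5.78 with STEM (SD, n = 6 each). Calcr was at 3 counts or fewer in every library. In bulk RNA, fewer cells of a type and less RNA per cell cannot be told apart, and the part of these shifts in the myosin values was not tested.

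Myh3, Myh2, Myh1, Myh4 and Myh8 lie in this order on the + strand of chromosome 11, within 230 kb (67078300 to 67308634, GRCm38). Myh6 (54941921 to 54966927) and Myh7 (54970684 to 54994626) are neighbours on the - strand of chromosome 14, and Myh7b (155611212 to 155634307) is on the + strand of chromosome 2. Stretches before the RefSeq starts (GRCm38.p6) of the 4 adjacent genes from Myh2 to Myh8 are shown because these neighbours differed in their response and yet hold a stretch of identical sequence. That of Myh1 is cut at its GENCODE start, so the last 50 bases before its RefSeq start are not shown. Bases are written 5′ to 3′ on the + strand, and capitals mark the letters that Myh2, Myh1, Myh4 and Myh8 share (TTCTAATTATATCC) and those that Myh1, Myh4 and Myh8 share (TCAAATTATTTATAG).
Myh2 (chr11:67170777-67171026): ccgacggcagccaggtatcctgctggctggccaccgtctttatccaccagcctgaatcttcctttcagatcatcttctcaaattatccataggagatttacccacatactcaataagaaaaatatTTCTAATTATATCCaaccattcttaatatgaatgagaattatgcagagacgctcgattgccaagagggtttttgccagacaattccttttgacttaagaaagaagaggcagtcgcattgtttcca
Myh1 (chr11:67199852-67200051): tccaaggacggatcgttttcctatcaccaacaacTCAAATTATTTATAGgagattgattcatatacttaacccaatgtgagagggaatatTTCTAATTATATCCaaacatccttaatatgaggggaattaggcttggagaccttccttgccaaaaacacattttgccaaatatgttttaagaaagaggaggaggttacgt
Myh4 (chr11:67237562-67237811): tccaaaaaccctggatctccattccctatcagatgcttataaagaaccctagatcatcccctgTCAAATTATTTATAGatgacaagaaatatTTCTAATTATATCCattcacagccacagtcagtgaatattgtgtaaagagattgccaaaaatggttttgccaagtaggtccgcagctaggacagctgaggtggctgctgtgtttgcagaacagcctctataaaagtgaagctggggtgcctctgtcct
Myh8 (chr11:67276874-67277123): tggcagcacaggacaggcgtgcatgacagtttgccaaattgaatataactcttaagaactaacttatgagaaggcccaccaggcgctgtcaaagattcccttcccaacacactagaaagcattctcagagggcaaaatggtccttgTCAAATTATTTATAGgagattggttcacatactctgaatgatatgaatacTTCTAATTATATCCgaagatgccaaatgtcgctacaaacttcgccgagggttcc

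The word TTCTAATTATATCC occurred on either strand in 4 of 32851 RefSeq promoters (250 bases before the start), and these were the 4 genes shown. It began 125 bases before the RefSeq start in Myh2, 160 in Myh1, 158 in Myh4 and 54 in Myh8. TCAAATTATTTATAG occurred in 3 promoters, those of Myh1, Myh4 and Myh8. Both words were picked from the members' own promoters, so their rarity elsewhere is a description. The E-box CANNTG, the core letters bound by MyoD family factors, was in 6 of the 8 members' promoters and in 66.2% of all promoters, and was absent from those of Myh1 and Myh2. The MCAT letters CATTCC, bound by TEAD factors, were in the promoters of Myh1, Myh4, Myh7 and Myh6 and in 12.6% of all promoters. In Myh1 they lay in the bases not shown. A CArG box was found before Myh4 alone of the 8, against 1.47% of all promoters. No promoter of a member held the MEF2 letters in their strict form, CTA, 4 letters of A or T, then TAG (0.508% of all). Looser forms of the MEF2 motif were not searched, so sites of such a form can be present. The RefSeq start lay 217 bases from the GENCODE start for Myh4, 320 for Myh6, 50 for Myh1 and 31 for Myh7b, and at the same base for the other members.

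Introns of 3 members host microRNA genes with related seeds, and their mature sequences from RefSeq are shown because the hosts differed in their response. Capitals mark the seed, bases 2 to 8.
miR-208a-3p (in Myh6): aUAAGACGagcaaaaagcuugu
miR-208b-3p (in Myh7): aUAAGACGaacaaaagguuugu
miR-499-5p (in Myh7b): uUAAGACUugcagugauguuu

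The seeds of miR-208a-3p and miR-208b-3p were identical, and that of miR-499-5p shared bases 2 to 7 with them. The table held 0 counts for the gene Mir208a in every library, 0 to 3 for Mir208b and 0 to 1 for Mir499, so these libraries did not measure the microRNAs.

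Myh3 and Myh1 were the most abundant chains in both groups. Levels were compared between genes as CPM per kb of annotated exon. In horse serum, Myh1 stood at 220 ± 83.0 and Myh3 at 208 ± 51.2 CPM per kb (SD, n = 6), and Myh1 was above Myh3 in 3 of the 6 libraries. Next came Myh8 (49.7), Myh4 (32.6), Myh7 (29.7), Myh2 (12.3), Myh6 (4.08) and Myh7b (3.61 CPM per kb). The ranges of neighbours in this order overlapped except between Myh3 and Myh8. Without library 6, those of Myh8 and Myh4, of Myh7 and Myh2, and of Myh2 and Myh6 came apart as well.

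With STEM, Myh3 stood at 256 ± 70.2 and Myh1 at 223 ± 41.3 CPM per kb, with overlapping ranges. Myh4 followed at 77.5 ± 8.25 CPM per kb, above Myh8 (20.9), Myh7 (14.4), Myh2 (8.31), Myh7b (5.20) and Myh6 (1.99) in each of the 6 libraries. Among these, only the ranges of Myh8 and Myh7 overlapped. By group means Myh4 and Myh8 had thus changed places, with Myh8 above Myh4 in 5 of the 6 horse serum libraries. The means of Myh6 and Myh7b also changed order, but Myh6 was above Myh7b in only 2 of the 6 horse serum libraries, so no exchange was shown for this pair. The order of Myh4 and Myh7 in horse serum depended on the gene length used. The annotated exons of Myh8 cover 11.772 kb and its longest transcript 6.149 kb, which gives 95.1 in place of 49.7 CPM per kb in horse serum, and for Myh7 they cover 8.616 and 6.230 kb. On the longest transcript Myh7 (41.1 CPM per kb) stood above Myh4 (32.6) in horse serum, while Myh8 stayed above both.

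Across the 12 libraries, 2 of the 8 genes passed the test between groups, with Myh4 higher and Myh8 lower in STEM, where 36.4% of 14175 tested genes were called (18.9% higher and 17.4% lower). The threshold for a call was a p-value of 0.05, adjusted over all tested genes, in edgeR's quasi-likelihood test. Without horse serum library 6, 5 genes were called, Myh4 higher and Myh8, Myh7, Myh6 and Myh2 lower, against a background of 50.8% (26.3% higher and 24.5% lower). The groups did not overlap for Myh4 alone across 12 libraries, where 17.2% of tested genes did not overlap (8.68% with STEM above and 8.52% with STEM below), and for the same 5 called genes without library 6, against 33.3% (16.8% with STEM above and 16.5% with STEM below). The median log2 fold change of the 8 genes was -0.27 across 12 libraries and -0.48 without library 6, beside 0.01 in both fits for all genes. The shares of members called in either direction lie near the background. Without library 6, 4 of the 8 were called lower, where 24.5% of all tested genes were. The same 4 of 8 lay below horse serum without overlap, where 16.5% of all tested genes did. With only 8 genes and no such excess across 12 libraries, these counts are not taken as a result about the family. What the members show is their directions and sizes, which follow by class.

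**Figure D1:**
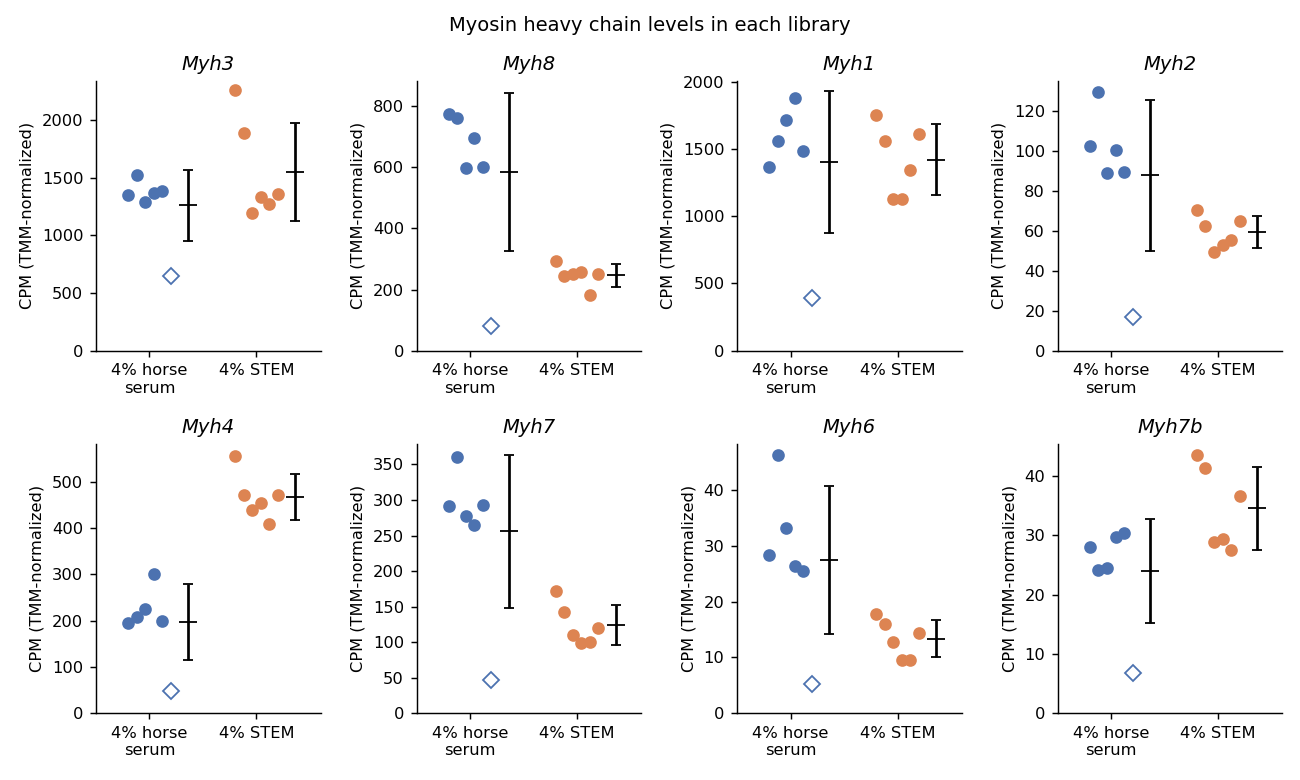
Level of each of the 8 myosin heavy chains in CPM (y axis from 0, each panel its own scale) in the 6 libraries of each group (points; the open diamond is horse serum library 6), with the mean and SD beside them. The 6 STEM libraries of Myh4 (409 to 556) lie above all 6 horse serum libraries (48.0 to 299.7), and library 6 is the lowest of the 12 in every panel.

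Among the developmental chains, embryonic Myh3 did not pass the test. Its level was 1285 to 1522 CPM in horse serum libraries 1 to 5 and 647 in library 6. With STEM it ranged from 1197 to 2256 with a median of 1342. The upper end came from STEM libraries 7 and 8 (2256 and 1888 CPM), while the other 4 STEM libraries (1197 to 1354) lay below or within the range of horse serum libraries 1 to 5. The log2 fold change was 0.30 ± 0.21 (SE; adjusted p = 0.294) and 0.17 ± 0.17 without library 6 (adjusted p = 0.451).

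Perinatal Myh8 fell. Horse serum libraries 1 to 5 held 598 to 775 CPM and library 6 held 79.8, while the STEM libraries held 181 to 294 with a median of 250.3. Every STEM library lay below the first 5 horse serum libraries and above library 6. The log2 fold change was -1.25 ± 0.41 (adjusted p = 0.0357), and -1.48 ± 0.12 without library 6 (adjusted p = 1.83e-06), a 2.78-fold lower level. With all 12 libraries this call was marginal, since leaving out any library but the sixth ended it (adjusted p up to 0.0745).

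Of the adult fast chains, Myh4, the chain of the fastest 2B fibres, rose. Its level was 196 to 299.7 CPM in horse serum libraries 1 to 5, 48.0 in library 6 and 409 to 556 with STEM, with a STEM median of 462. No STEM library overlapped with a horse serum library. The rise was 2.38-fold (log2 fold change 1.25 ± 0.32, adjusted p = 0.0105), or 2.07-fold without library 6 (1.05 ± 0.12, adjusted p = 3.21e-05). Myh4 was called in every alternative that was run and with any library left out.

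Myh1, the 2X chain and the most abundant adult isoform here, showed no called difference. It ranged from 1367 to 1881 CPM in horse serum libraries 1 to 5, stood at 388 in library 6, and ranged from 1125 to 1753 with STEM with a median of 1449. The log2 fold change was 0.02 ± 0.30 (adjusted p = 0.969), and -0.18 ± 0.14 without library 6 (adjusted p = 0.311), so that even its sign depended on library 6.

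Myh2, the 2A chain, was far less abundant than Myh1. It was at 88.9 to 129 CPM in horse serum libraries 1 to 5, 16.8 in library 6 and 49.3 to 70.4 with STEM, with a STEM median of 59.1. Its log2 fold change of -0.56 ± 0.36 did not pass across 12 libraries (adjusted p = 0.246). Without library 6 it fell by 0.78 ± 0.12 on the log2 scale (adjusted p = 0.000267), with no overlap between the groups.

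Both chromosome 14 genes were lower with STEM by similar factors. Myh7, the slow and beta cardiac chain, was at 265 to 361 CPM in horse serum libraries 1 to 5 and 47.1 in library 6. With STEM it ranged from 98.5 to 172 with a median of 115. Its log2 fold change of -1.04 ± 0.38 narrowly missed the threshold (adjusted p = 0.0513). Without library 6 it fell by 1.26 ± 0.16 on the log2 scale (adjusted p = 9.82e-05), a 2.39-fold lower level.

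Myh6, the alpha cardiac chain, was low throughout, with 102 to 598 raw counts in the 12 libraries. Its levels were 25.4 to 46.2 CPM in horse serum libraries 1 to 5, 5.23 in library 6 and 9.61 to 17.8 with STEM, with a STEM median of 13.6. The log2 fold change was -1.02 ± 0.39 (adjusted p = 0.0615), and without library 6 Myh6 fell by 1.23 ± 0.21 (adjusted p = 0.000745). Its ratio to Myh7 stayed narrow, with a mean log2 count ratio of -3.24 ± 0.21 in horse serum and -3.23 ± 0.14 with STEM (SD, n = 6). These values overlapped, and library 6 was at -3.17.

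Myh7b, the third member of the slow and cardiac class, differed from its relatives in sign and was not called. It was at 24.1 to 30.4 CPM in horse serum libraries 1 to 5, 6.82 in library 6 and 27.5 to 43.6 with STEM, with a STEM median of 33.0. The log2 fold change was 0.54 ± 0.29 (adjusted p = 0.167) and 0.34 ± 0.14 without library 6 (adjusted p = 0.0572). Its ratio to Myh7 nevertheless separated the groups, with a mean log2 count ratio of -3.33 ± 0.37 in horse serum and -1.84 ± 0.11 with STEM and no overlap.

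**Figure D2:**
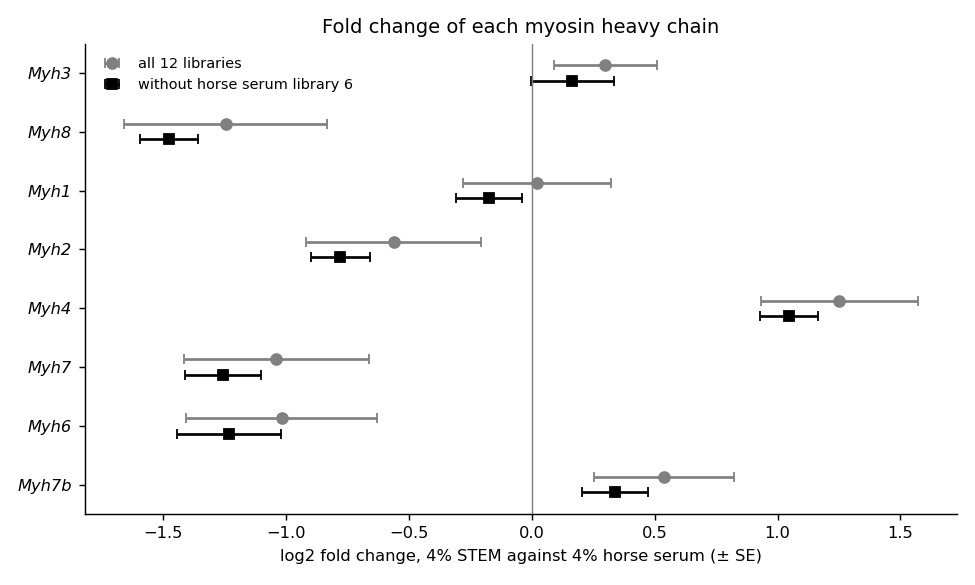
Log2 fold change of each chain, 4% STEM against 4% horse serum (x axis, ± SE), from all 12 libraries (circles) and without horse serum library 6 (squares). Leaving out library 6 moved all 8 estimates downwards and shortened every error bar, from 0.41 to 0.12 for Myh8.

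Horse serum library 6 was the lowest of all 12 libraries for each of the 8 chains. The mean of the other 5 horse serum libraries was 2.14-fold above it for Myh3, 4.13-fold for Myh1, 4.70-fold for Myh4 and 8.59-fold for Myh8. The deficit was thus uneven across isoforms. In the same library 9 of 9 myotube markers were below the other 5 horse serum libraries and 0 of 7 proliferation markers were. The share of all tested genes that lay below in library 6 was not computed, so the counts for heavy chains and markers have no background beside them. The part of these marker differences in the myosin values was not tested.

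The family as a whole took 0.376% ± 0.122 of all counts in horse serum, 0.425% ± 0.025 without library 6 and 0.393% ± 0.074 with STEM. Per kb of exon the family total was 592 to 684 CPM in horse serum libraries 1 to 5, 192 in library 6 and 495 to 805 with STEM. The STEM libraries lay on both sides of the horse serum range. STEM library 7, the deepest of all with 24536264 counts, had the highest STEM value for all 8 chains and a family total of 805, followed by library 8 with 690. Because total levels varied within a group, the make-up of the family was also read as each isoform's share of its total within a library, from which depth and normalization cancel.

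Myh3 and Myh1 together made up most of the family in every library. With STEM the share of Myh4 grew and those of Myh8, Myh7, Myh6 and Myh2 shrank. The 8 shares sum to 100% and are not independent. Each was compared by a two-sided exact permutation test over libraries, 8 tests with all 12 libraries and 8 without library 6, unadjusted, in which the smallest p possible is 0.00216.

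The share of Myh4 was 5.61% ± 1.03 in horse serum (4.15 to 7.28%) and 12.97% ± 1.44 with STEM (11.4 to 14.7%; SD, n = 6 each). The groups were far apart (exact p = 0.00216), and library 6, at 4.15%, was the lowest of the horse serum libraries. The share of Myh8 was 8.26% ± 2.56 in horse serum and 3.50% ± 0.613 with STEM (exact p = 0.00649). Library 6, at 3.52%, lay among the STEM libraries (2.91 to 4.30%), and the other 5 were at 8.14 to 11.1%. On the longest transcript the Myh8 shares were larger, 14.0% in horse serum and 6.31% with STEM (exact p = 0.00649). For Myh2 the share was 2.09% ± 0.504 in horse serum and 1.38% ± 0.112 with STEM (exact p = 0.0152), and library 6, at 1.22%, was below every STEM library. Without library 6 the groups did not overlap for Myh8 or Myh2 (exact p = 0.00216 for each).

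The slow and cardiac chains were separated by group in their shares, library 6 included. Myh7 made up 5.02% ± 1.22 of the family in horse serum and 2.36% ± 0.151 with STEM (exact p = 0.00216). Its lowest horse serum value, 2.84% in library 6, was above the highest STEM value, 2.58%. Myh6 made up 0.689% ± 0.212 and 0.326% ± 0.0449 (exact p = 0.00216), again without overlap. The share of Myh7b moved the other way, from 0.634% ± 0.0925 to 0.857% ± 0.0490 (exact p = 0.00216), also without overlap.

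The shares of both leading chains overlapped between the groups across 12 libraries. Myh1 took 38.4% ± 4.44 in horse serum and 36.9% ± 3.16 with STEM (exact p = 0.513, or 0.184 without library 6). Myh3 took 39.3% ± 8.23 and 41.7% ± 3.60 (exact p = 0.561). In library 6 the Myh3 share was 55.5%, above all others, and without it the horse serum mean was 36.1% ± 2.35 (exact p = 0.0216), with ranges that still overlapped. On the longest transcript, also without library 6, the Myh3 share was 32.0% ± 1.91 in horse serum and 39.4% ± 3.51 with STEM, and the groups did not overlap (exact p = 0.00433).

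By class, the developmental chains made up 47.6% ± 6.30 of the family in horse serum (45.3% without library 6) and 45.2% ± 3.48 with STEM, with overlap. Adult fast chains made up 46.1% ± 5.57 (47.9% without library 6) and 51.3% ± 3.52, also with overlap. Slow and cardiac chains made up 6.35% ± 1.44 (6.86% without library 6) and 3.55% ± 0.212, and only library 6 (3.78%) reached into the STEM range (3.27 to 3.84%). No test was run on class sums. The class sums of the developmental and adult fast chains joined unlike members, since the share of Myh8 shrank beside an overlapping share of Myh3, and the share of Myh4 grew as that of Myh2 shrank.

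**Figure D3:**
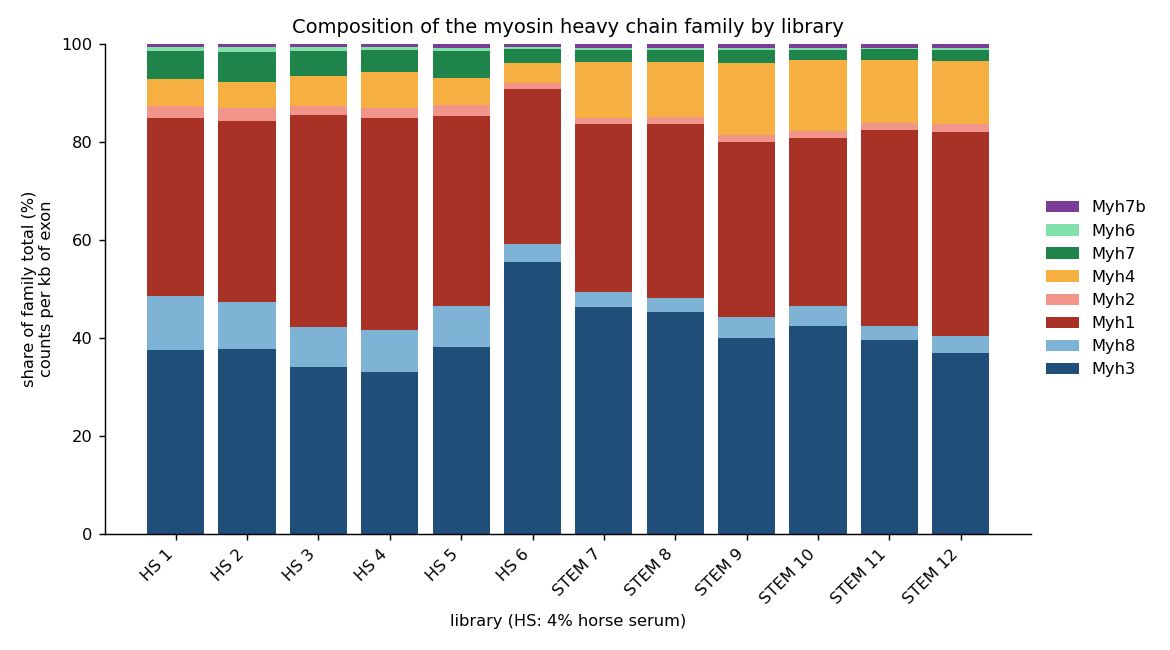
Share of each chain in the family total (y axis, percent of counts per kb of exon) in the 12 libraries (x axis; HS is 4% horse serum). Myh4 (orange) widens from 4.15 to 7.28% in the horse serum bars to 11.4 to 14.7% in the STEM bars, while Myh8 (light blue) and Myh7 (dark green) narrow, and horse serum library 6 has the largest Myh3 block (55.5%).

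Within the adult fast trio, ratios of counts told the isoforms apart in each library without reference to other genes. The log2 ratio of Myh4 to Myh1 was -3.02 to -2.65 in horse serum and -1.78 to -1.31 with STEM, with library 6 at -3.02. The ratio of Myh4 to Myh2 was 0.68 to 1.57 and 2.85 to 3.15, and that of Myh4 to Myh8 was -1.98 to -0.73 and 0.81 to 1.18. None of these 3 ratios overlapped between the groups, library 6 included. Myh4 counts were below those of Myh8 in all 6 horse serum libraries and above them in all 6 STEM libraries. The ratio of Myh7 to Myh1 also separated the groups, with means of -2.53 ± 0.36 and -3.52 ± 0.18. Ratios of Myh8 to Myh3, of Myh1 to Myh3 and of Myh2 to Myh1 overlapped across 12 libraries. Without library 6, the ratio of Myh8 to Myh3 separated the groups (-1.21 to -0.80 in horse serum and -2.95 to -2.26 with STEM), as did that of Myh2 to Myh1 (-4.27 to -3.59 and -4.64 to -4.41). Only the ratio of Myh1 to Myh3 among these 3 still overlapped.

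Across the chromosome 11 cluster, called changes in both directions lay beside genes that were not called. Without library 6 the log2 fold changes in order of position were 0.17 for Myh3, -0.78 for Myh2, -0.18 for Myh1, 1.05 for Myh4 and -1.48 for Myh8. Myh4 and Myh8, which rose and fell, are direct neighbours. Inside the cluster, the noncoding RNA 2310065F04Rik between Myh3 and Myh2 was not called (log2 fold change 0.12 ± 0.26, adjusted p = 0.752). The antisense RNA 9430073C21Rik, which overlaps Myh2, had a log2 fold change of -0.39 ± 0.35 (adjusted p = 0.418), and without library 6 it fell by 0.62 ± 0.14 (adjusted p = 0.00146), the same direction as Myh2. The strand setting of the counting is not given in the sources used here, so reads of Myh2 and of its antisense partner may not have been told apart. Myhas, the antisense RNA that starts near Myh4 and overlaps Myh1, had 1 to 7 counts. Trpc4ap, which overlaps the end of Myh7b on the other strand, was at 128 ± 4.29 CPM in horse serum and 121 ± 6.08 with STEM and was not called (adjusted p = 0.209).

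**Figure D4:**
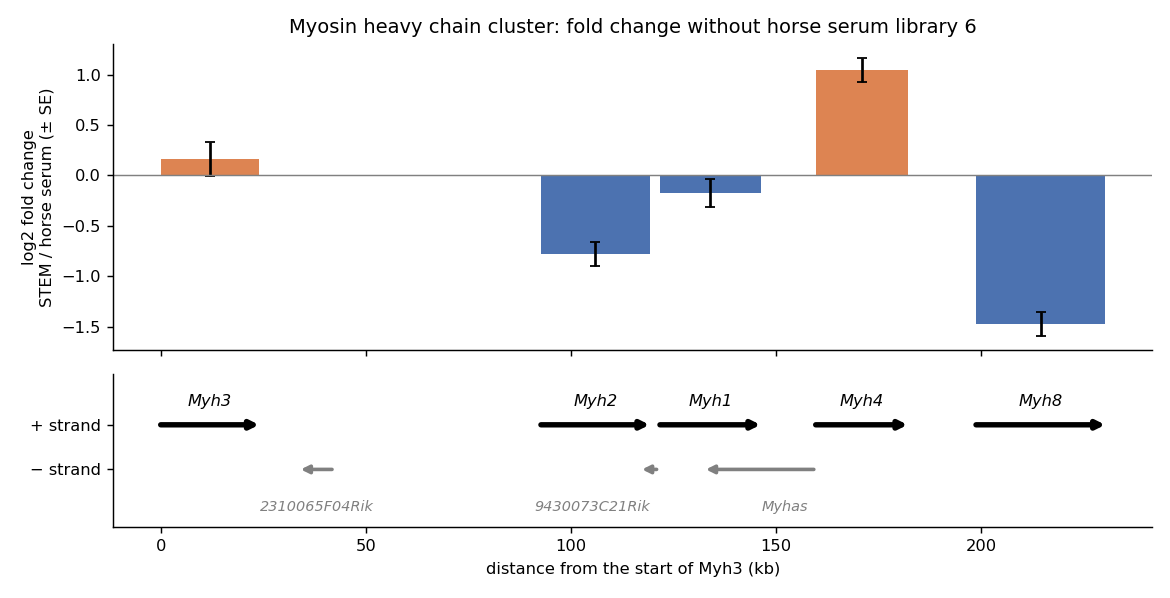
Top, log2 fold change without horse serum library 6 (y axis, ± SE) of the 5 chromosome 11 genes, drawn at their positions. Bottom, the genes on the + strand and 3 noncoding RNAs on the - strand (x axis, kb from the start of Myh3). The bar of Myh4 (1.05) points up next to that of Myh8 (-1.48), which points down.

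The isoforms are alike in sequence, which bears on how reads are divided among them. The longest GENCODE transcripts of Myh7 and Myh6 were 90.1% identical, those of Myh1 and Myh2 89.8%, and those of Myh1 and Myh4 89.1%. Of all 150-base windows, 5.43% of those of Myh7 and 5.53% of those of Myh6 occurred letter for letter in another member, as did 2.49% for Myh1, 2.06% for Myh2, 0.533% for Myh8, 0.511% for Myh4 and 0 for Myh3 and Myh7b. At 50 bases these shares were 26.7% for Myh2, 26.1% for Myh1, 22.6% for Myh6, 22.2% for Myh7, 19.9% for Myh8, 18.6% for Myh4, 3.66% for Myh3 and 0 for Myh7b. How the authors' counting treated reads that match more than 1 member is not given in the sources used here. Exon bases shared with another annotated gene on either strand made up 13.3% of Myh7 and 8.11% of Myh1. The genes that overlap Myh7 and Myh1 lie on the opposite strand, apart from the microRNA gene Mir208b in Myh7. If the counting ignored strand, reads on these bases can be left uncounted or split.

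The partners of the heavy chains in the thick filament were read from lists written for the sarcomere. Myosin light chains and their kinases had 1 of 7 tested genes called across 12 libraries and 6 of 7 without library 6, all lower with STEM (median log2 fold change -0.29 and -0.46), where 17.4% and 24.5% of all tested genes were called lower. Myl2, the slow and ventricular regulatory light chain, fell from 50.05 ± 23.5 to 12.1 ± 3.71 CPM (log2 fold change -2.03 ± 0.50, adjusted p = 0.00879, and -2.27 without library 6), the same direction as Myh7. Library 6 had 4.36 CPM of Myl2, below every other horse serum library. The embryonic light chain Myl4 and the fast light chains Myl1 and Mylpf were called only without library 6, with log2 fold changes of -0.46, -0.59 and -0.38. All 7 light chain and kinase genes were lower in library 6 than in the other 5 horse serum libraries. The matching share over all tested genes was not computed.

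Among 9 tested genes of the thick filament and M-band, 2 were called across 12 libraries, Obsl1 higher (0.50 ± 0.07, adjusted p = 3.85e-05) and Mybph lower (-0.32 ± 0.11, adjusted p = 0.0296). Without library 6, 1 was higher and 4 were lower. Of all tested genes, 36.4% were called across 12 libraries and 50.8% without library 6 (26.3% higher and 24.5% lower). Obsl1 (0.47) and Mybph (-0.41) stayed called in that fit. Mybpc1, the slow myosin binding protein C, fell by 1.37 ± 0.27 (adjusted p = 0.00193) and Mybpc2, its fast counterpart, by 0.89 ± 0.16 (adjusted p = 0.000924) on the log2 scale, and the M-band protein Myom1 fell by 0.49 ± 0.06 (adjusted p = 5.24e-06). Titin (Ttn), the giant spring that spans the same filament, was not called in either fit (0.22 and 0.16).

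Of 19 thin filament genes, 4 were called across 12 libraries, 1 higher and 3 lower, and 15 without library 6, 1 higher and 14 lower (median -0.19 and -0.34). Of all tested genes, 36.4% and 50.8% were called, 17.4% and 24.5% lower. The gene that rose, Nebl (2.77 ± 0.25, adjusted p = 1.43e-06), encodes nebulette and was scarce, at 0.232 ± 0.0815 and 1.65 ± 0.313 CPM. Tnni3, the cardiac troponin I, fell from 2.08 ± 0.225 to 0.780 ± 0.199 CPM (-1.40 ± 0.18, adjusted p = 3.55e-05), Tpm3, the slow tropomyosin, fell by 0.43 ± 0.12 (adjusted p = 0.0118) and Tnnt2 by 0.27 ± 0.10 (adjusted p = 0.0439). Without library 6 these 4 genes were also called, with log2 fold changes of 2.96, -1.33, -0.52 and -0.35. The 14 genes lower in that fit were not only slow or cardiac ones. They held Tnnc1 (-0.39, adjusted p = 4.98e-07), the slow troponin I Tnni1 (-0.47, adjusted p = 6.97e-06) and the fast one, Tnni2 (-0.35, adjusted p = 5.04e-06). The fast troponins Tnnc2 (-0.26, adjusted p = 0.00282) and Tnnt3 (-0.17, adjusted p = 0.0142) were among them as well. Of the cardiac markers, Nppa, Myl7 and Ryr2 were at 3 counts or fewer in every library and Tnni3 was the only 1 of 7 with counts enough to test. The median of all tested genes was 0.01 in both fits.

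**Figure D5:**
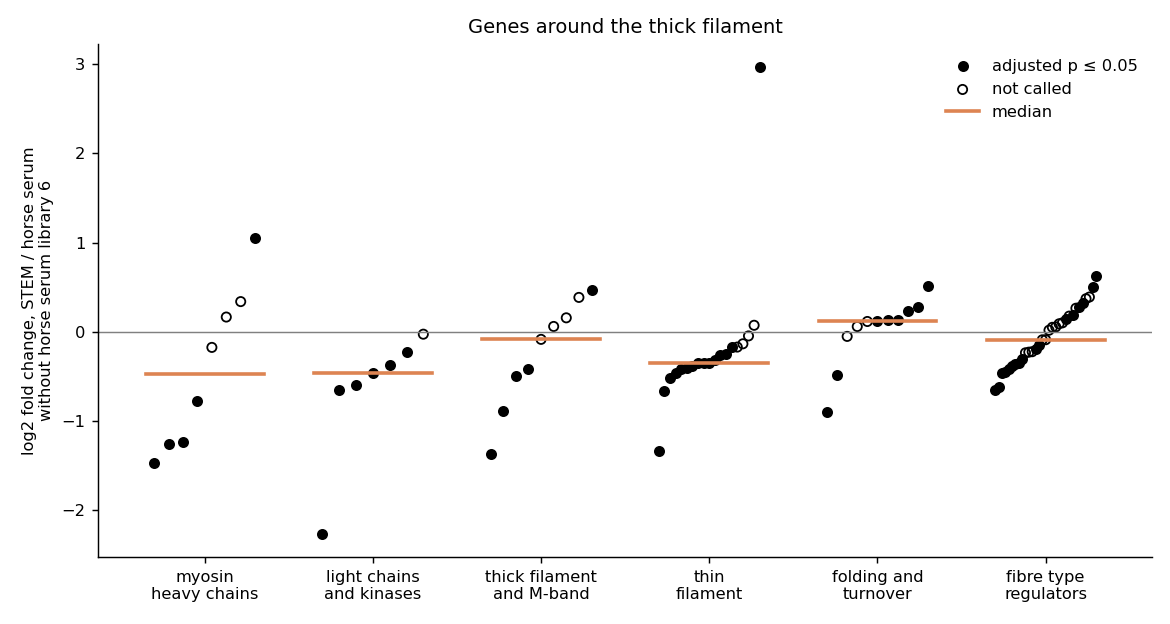
Log2 fold change without horse serum library 6 (y axis) of each tested gene (points, sorted within a list; filled where called) of the 8 heavy chains and of 5 gene lists (x axis), with the median as a bar. The heavy chains span from -1.48 (Myh8) to 1.05 (Myh4), and 6 of 7 light chain and kinase genes are filled and below 0.

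Chaperones and ubiquitin ligases that act on myosin did not share a direction. Of 11 genes, 4 rose and 2 fell across 12 libraries, and 6 rose and 2 fell without library 6, against 36.4% and 50.8% of all tested genes called. Ahsa1, an HSP90 cochaperone, rose by 0.25 ± 0.05 (adjusted p = 0.000852), as did Hsp90aa1 (0.21 ± 0.05, adjusted p = 0.00463), Hsp90ab1 (0.12 ± 0.04, adjusted p = 0.0401) and the general myosin chaperone Unc45a (0.36 ± 0.13, adjusted p = 0.0439). Stip1 was among those called only without library 6 (0.13 ± 0.04, adjusted p = 0.0059). Unc45b and Smyd1, which serve folding of muscle myosin, were not called (0.17 and 0.08). Trim63, the ligase MuRF1 that marks thick filament proteins for degradation, fell from 69.2 ± 17.0 to 40.8 ± 4.52 CPM (-0.76 ± 0.17, adjusted p = 0.00347), and its relative Trim55 fell by 0.42 ± 0.08 (adjusted p = 0.00132). Without library 6 all 6 genes were called in the same direction, with log2 fold changes of 0.28 for Ahsa1, 0.23 for Hsp90aa1, 0.12 for Hsp90ab1, 0.52 for Unc45a, -0.89 for Trim63 and -0.49 for Trim55.

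Regulators of fibre type genes changed in both directions. Of 31 tested, 2 rose and 8 fell across 12 libraries, and 6 rose and 11 fell without library 6 (median 0.01 and -0.09). Over all tested genes 18.9% rose and 17.4% fell, and 26.3% and 24.5% without library 6. Eya4 (-0.44 ± 0.05, adjusted p = 1.63e-05) and Maf (-0.44 ± 0.08, adjusted p = 0.000855), which are known to favour fast chains, fell, as did the histone deacetylase Hdac5 (-0.59 ± 0.06, adjusted p = 6.13e-06). Nfatc1 (0.54 ± 0.18, adjusted p = 0.0292) and Mef2d (0.30 ± 0.10, adjusted p = 0.0347), which are known to favour slow chains, rose. All 5 were also called without library 6, with log2 fold changes of -0.47 for Eya4, -0.42 for Maf, -0.62 for Hdac5, 0.62 for Nfatc1 and 0.32 for Mef2d. Without library 6, Mafa, a large Maf factor linked to the 2B chain, fell by 0.66 ± 0.09 (adjusted p = 4.04e-05). In that fit Thra (-0.35 ± 0.05, adjusted p = 1.08e-05) and Mef2c (-0.19 ± 0.05, adjusted p = 0.00344) fell too. Across 12 libraries Mef2c was not called (0.02), and Ppargc1a and Tbx15 were called in neither fit. Nfatc1, Mef2d and Mafa were named after their values were seen, so the named genes do not show a direction by fibre type.

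Other myosin heavy chains were read beside the family. Myh13, the extraocular chain that follows Myh8 on chromosome 11, was at 1.05 ± 0.352 and 1.01 ± 0.374 CPM and was not called, and Myh15 was at 3 counts or fewer in every library. The nonmuscle chains Myh9 (1499.6 ± 196 and 1515 ± 83.6 CPM) and Myh10 were not called across 12 libraries, and without library 6 Myh10 rose by 0.13 ± 0.05 on the log2 scale (adjusted p = 0.0324) and Myh9 was not called (0.09). Myh14 fell from 3.17 ± 1.42 to 0.881 ± 0.394 CPM (-1.82 ± 0.43, adjusted p = 0.0047), and by 2.07 ± 0.21 on the log2 scale without library 6 (adjusted p = 1.72e-07).

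The genes most like Myh3, the chain with the highest mean level per kb over the 12 libraries, were sought by the root mean square difference of mean-centred log2 CPM over the libraries. Of 14167 genes, the nearest over 12 libraries were Inpp4b (0.159), Nrap (0.160), Slc6a19 (0.168), Fos (0.169) and A930003A15Rik (0.169), against a spread of Myh3 itself of 0.407. Over the 11 libraries without library 6 they were Nars2 (0.134), Otulin (0.144), Rcan1 (0.149), Gm2694 (0.150) and Nrap (0.153), against a spread of 0.261. Nrap, an actin-binding protein of growing myofibrils, stood in both lists.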

How the data were processed

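RNA was sequenced from 12 C2C12 libraries, 6 per group. The authors removed ribosomal RNA, made stranded libraries of total RNA and deposited raw counts of reads per gene on GRCm38, without normalization. The submitters' processing notes list STAR 2.7.3a, featureCounts 1.6.3 and DESeq2 1.26.0 without their roles. The annotation release and the strand setting of the counting are not given in the sources used here.

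Sample labels gave the groups. The whole count table was fitted with edgeR 4.0.16 in R 4.3.3 (TMM, filterByExpr, robust glmQLFit, glmQLFTest, Benjamini-Hochberg). CPM are TMM-normalized, and log2 CPM used a prior count of 2. Genes at 3 counts or fewer in every library were taken as at the floor, which covers counting error only. Depth was between 13285472 and 24536264 counts. Family shares are counts per kb of the union of GENCODE exons over the sum of the 8 members. Symbols and positions came from GENCODE, and promoters and microRNAs from RefSeq (GRCm38.p6). Tests were tried on simulated counts first.

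The members, the gene lists and the tests were chosen with earlier results of these data known. Named genes were all 8 members, at most 4 called genes of lowest p-value from each list in each fit, cell type markers, annotated genes with over 10 counts that overlap a member or lie in the cluster, and the 5 genes most like the most abundant member. A gene that meets this rule is not reported here. Others, such as Ttn, Mybpc1, Hsp90ab1, Stip1, Unc45b, Smyd1, Nfatc1, Mef2d, Mafa, Myhas, Myh9, Myh10, Myh13, Myh15 and the microRNA genes, were chosen after their values were seen. Alternatives to the scaling (size factors of DESeq2, total counts, upper quartile), the filter (none, at least 10 counts in every library), the test (DESeq2 1.42.0, limma-voom with limma 3.58.1), the length used for shares and the libraries entered were run.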

Additional observations from a re-analysis of the deposited data

Results flagged for a closer look

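In 8 of 34 sets of 6 libraries examined, 1 library lay far from the others of its group by Dixon's criterion for 6 values, which chance meets in about 1 of 20 sets. All 8 were horse serum library 6. It was far below the other horse serum libraries for Myh3 (647 CPM), Myh8 (79.8 CPM), Myh1 (388 CPM), Myh2 (16.8 CPM), Myh7 (47.1 CPM) and Myh7b (6.82 CPM), and for the family total (192 CPM per kb). It was far above them for the share of Myh3 in the family, at 55.5%. These values rest on the same library and are not independent of each other. For Myh4 and Myh6 the same library was also the lowest but did not meet the criterion, and no STEM library met it for any member.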

How the results depend on the processing

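No paired analysis was run because the labels, running numbers from 1 to 12, do not say whether libraries of the groups were paired. The directions of Myh4 and of the shares of Myh4, Myh8, Myh7, Myh6, Myh2 and Myh7b, and their calls, held in every setting run. Myh8 lost its call with no filter (log2 fold change -1.25, adjusted p = 0.0798) and with limma-voom (-0.97, adjusted p = 0.105). Myh7 gained a call with total counts (-1.004), upper quartile scaling (-1.06), at least 10 counts in every library (-1.05) and DESeq2 (-1.05, adjusted p = 0.0193), and Myh6 with DESeq2 (-1.04, adjusted p = 0.0272). The sign of Myh1 turned with upper quartile scaling (-0.0022), and its share difference turned with raw counts (0.54 points) and the longest transcript (0.44 points). The causes were not tested.

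When single libraries were left out, the number of called genes ran from 4459 to 7245, and the log2 fold changes ran from 0.15 to 0.36 for Myh3, -1.48 to -1.15 for Myh8, -0.18 to 0.12 for Myh1, -0.78 to -0.42 for Myh2, 1.05 to 1.41 for Myh4, -1.26 to -0.92 for Myh7, -1.23 to -0.81 for Myh6 and 0.34 to 0.62 for Myh7b. Myh8 was called without horse serum library 6 and in none of the other 11 fits. Myh2, Myh7 and Myh6 were called without library 6 and in none of the others. The sign of Myh1 turned without horse serum library 6 and without STEM library 7, 8 or 12. The share difference of Myh3 ran from 1.13 to 5.63 points and passed without library 6. Called genes ran from 1 to 6 for light chains, 1 to 5 for the thick filament, 3 to 15 for the thin filament, 8 to 17 for fibre type regulators and 1 to 2 for nonmuscle chains, each highest without library 6. Levels of scarce chains rest on few counts, from 102 for Myh6 and 133 for Myh7b in library 6.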
